A study of Homo sapiens with 3 samples.

Results

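The comparison described here sets K562 cells carrying EVI1-WT against K562 cells carrying an empty vector, with 1 RNA-seq library on each side. K562 is a cell line that was derived from chronic myelogenous leukaemia and is in wide use. The cells were infected with retrovirus made in GP2-293 packaging cells from one of 3 plasmids, namely pMYs-IG_empty vector for the control, pMYs-IG_3xHA-EVI1-WT for the form compared here and, for the third library, pMYs-IG_3xHA-EVI1+18, so that the control carries the same vector backbone and its GFP marker. Both EVI1 forms bear 3 copies of the HA tag, GFP-positive cells were sorted 3 days after infection and then cultured, and the labels call the expression stable. The labels give neither the number of cells sorted nor the number of infections, and each library stands for 1 culture. The third library, EVI1+18, is set beside the others where its value helps to read them, and it shares the empty vector library with EVI1-WT as its reference. Of 26334 genes in the deposited tables, 10406 are described, those whose counts averaged 50 or more across the 3 libraries. With no replicates, nothing was tested. Each ratio is of counts scaled by library size with TMM factors, and the 95% interval after it is exact (Clopper-Pearson) and covers counting error alone.

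EVI1 is a zinc finger transcription factor made from the MECOM gene. It binds DNA through an N-terminal and a second, more distal finger domain, recruits corepressors, and is needed for the upkeep of blood stem cells. Rearrangements that raise its expression mark a group of myeloid leukaemias with poor outcome. K562 cells have erythroid features and can be driven toward red cell or megakaryocyte fates, which makes gene groups of those lineages a natural readout.

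Libraries held 17794423 counts with empty vector, 18439311 with EVI1-WT and 20772348 with EVI1+18. MECOM had 793, 1039 and 2012 counts, in that order, which is the order of every set of 3 values below (counts are not scaled, and the EVI1+18 library is the largest), and was 1.30-fold higher (1.18 to 1.42) with EVI1-WT. MECOM transcript was thus counted with no EVI1 insert present, and counts per gene do not part the cells' own transcript from that of the insert. The defining K562 genes were abundant in every library, with GATA1 at 3793, 3452 and 4218 counts and KLF1 at 2419, 2713 and 2998 counts. Of the other cell types the cultures could hold, the summed level of 6 stromal markers was 6.21, 0.986 and 2.03 CPM (counts scaled to library size), with COL1A2 the main part in the empty vector library. The 4 lymphoid markers summed to 0.554, 0.274 and 0.387 CPM and the 3 granulocyte and monocyte markers to 0.111, 0.164 and 0.483 CPM, with MS4A1 and ELANE at 0 in every library. Of the packaging cell markers, NEFM and PAX2 were at 0 in every library, NEFL had 1 count with empty vector, and LIN28B, at 2876, 3025 and 2904 counts, is also expressed by K562. In a bulk library, fewer cells of a type and less RNA per cell cannot be told apart.

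Larger differences were more often toward lower levels with EVI1-WT. At least 2-fold higher were 73 genes (0.702% of those described) and at least 2-fold lower 177 (1.70%). At 1.5-fold the counts were 247 higher (2.37%) and 411 lower (3.95%), and these percentages are the background for every group below. The median log2 ratio of all described genes was 0.01, and the central 90% lay between -0.49 and 0.42. For 34 of the higher and 103 of the lower genes the whole interval lay past 2-fold. The share of 2-fold calls depended on depth. Among the 786 genes with a mean of 50 to 100 counts 3.69% were 2-fold higher and 11.2% 2-fold lower, and among the 704 with at least 5000 counts 0.284% each. The interval left out a ratio of 1 for 44.9% of all described genes, so many genes differed between the libraries by more than counting error.

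**Figure D1:**
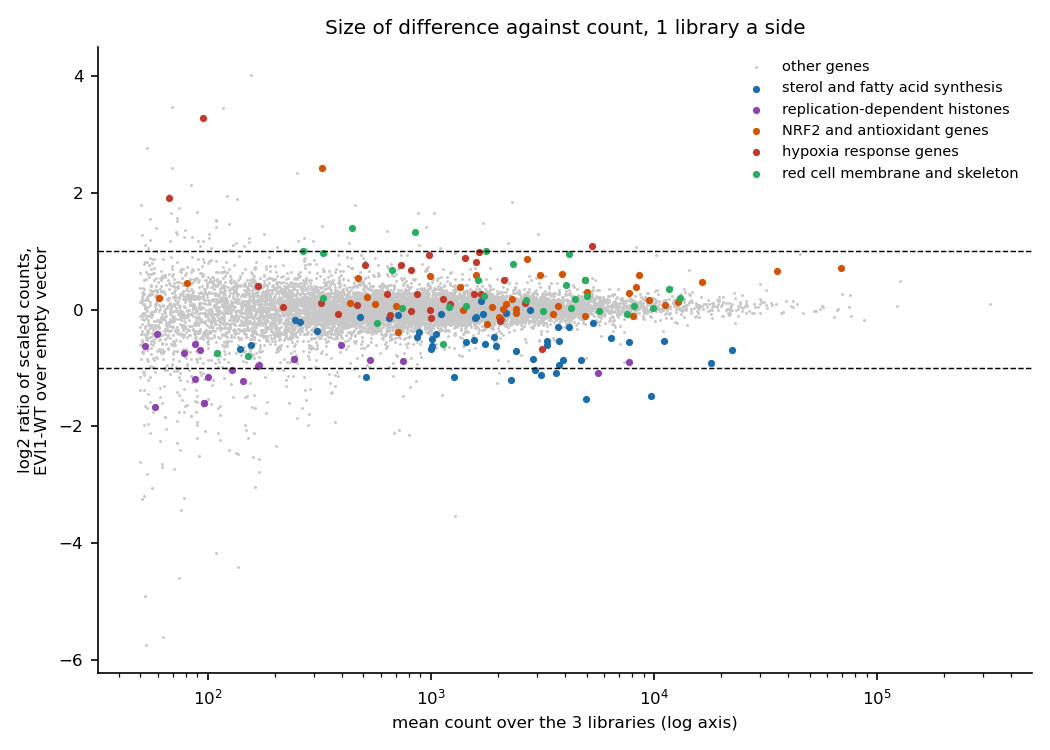
Log2 ratio of scaled counts, EVI1-WT over empty vector, against the mean count over the 3 libraries (log axis) for each of 10406 genes, with 5 groups of gene lists in colour and dashed lines at 2-fold. Blue points (sterol and fatty acid genes) and purple points (histones) lie almost all below 0, and the scatter narrows from left to right as counts grow.

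The genes farthest above a ratio of 1, ranked by the interval bound nearest to 1, were of many kinds. H19, an imprinted non-coding RNA, had 743, 2696 and 3527 counts and was 3.59-fold higher (3.31 to 3.90). SLC16A9, of the monocarboxylate carriers, had 80, 409 and 268 counts and was 5.05-fold higher (3.97 to 6.51). ALDH1A1, which oxidises retinal, had 539, 1712 and 857 counts and was 3.14-fold higher (2.85 to 3.47). INPP5D, the phosphatase SHIP1, had 27, 105 and 235 counts and was 3.84-fold higher (2.50 to 6.11). H19 and INPP5D were higher still with EVI1+18, whereas ALDH1A1 was at a ratio of 1.39 there. CRIM1, a membrane protein that binds bone morphogenetic proteins, had 36, 161 and 56 counts and was 4.42-fold higher (3.06 to 6.53). IGSF10, of the immunoglobulin superfamily, had 178, 629 and 568 counts and was 3.49-fold higher (2.95 to 4.15). EMILIN2, a secreted glycoprotein of elastic fibres, had 47, 178 and 183 counts and was 3.74-fold higher (2.70 to 5.28). CRIM1 and IGSF10 were highest in the EVI1-WT library, and EMILIN2 was alike in both EVI1 libraries. SLC7A8, an exchanger of large neutral amino acids, had 824, 2329 and 2007 counts and was 2.79-fold higher (2.58 to 3.03). LBH, a regulator of transcription, had 383, 1219 and 1026 counts and was 3.15-fold higher (2.80 to 3.54). Both stood well above the empty vector library in either EVI1 library. SMN2 (28, 310 and 13 counts), TICAM2 (10, 112 and 86 counts) and FAM133DP (14, 96 and 50 counts) share reads with other genes and are uncertain; the sum over SMN1 and SMN2, 2149, 2453 and 2405 counts, was at a ratio of 1.13 (1.06 to 1.20). GYPB, with 396, 1009 and 1150 counts, also has near copies, and summed with GYPE it was at a ratio of 2.13 (2.01 to 2.27). The non-coding LINC00942, on 32, 108 and 83 counts, was 3.34-fold higher (2.23 to 5.12). DACH1, a transcriptional regulator with the highest ratio of the genes described, had 26, 425 and 18 counts and was high in the EVI1-WT library alone.

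The genes farthest below were likewise of many kinds. DAB2, an endocytic adaptor, had 170, 16 and 42 counts and was 10.7-fold lower (6.43 to 19.2). UNC13A, which primes synaptic vesicles, had 148, 16 and 71 counts and was 9.36-fold lower (5.57 to 16.8). SCG3, a secretogranin of secretory granules, had 1121, 258 and 1014 counts and was 4.40-fold lower (3.84 to 5.05). FGF13, an intracellular member of the fibroblast growth factor family, had 356, 61 and 95 counts and was 5.90-fold lower (4.49 to 7.88). In the EVI1+18 library SCG3 was at a ratio of 0.789 and FGF13 at 0.233, so that FGF13 was low in both. FHL2, a LIM domain cofactor, had 117, 13 and 26 counts and was 9.10-fold lower (5.12 to 17.6). WWC2, related to the Hippo regulator KIBRA, had 325, 57 and 97 counts and was 5.77-fold lower (4.34 to 7.78). CTDSPL, a phosphatase of the small CTD type, had 244, 36 and 228 counts and was 6.86-fold lower (4.82 to 10.0), while its ratio with EVI1+18 was 0.815. DHRS2, a short-chain dehydrogenase, had 269, 49 and 91 counts and was 5.55-fold lower (4.08 to 7.69). SAMD5 had 203, 36 and 37 counts and was 5.70-fold lower (3.99 to 8.37). TSPYL6, of the testis-specific TSPY-like group, had 98, 14 and 49 counts and was 7.08-fold lower (4.03 to 13.4). ANKRD20A3, at 143, 22 and 48 counts, has near-identical copies and is uncertain.

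**Figure D2:**
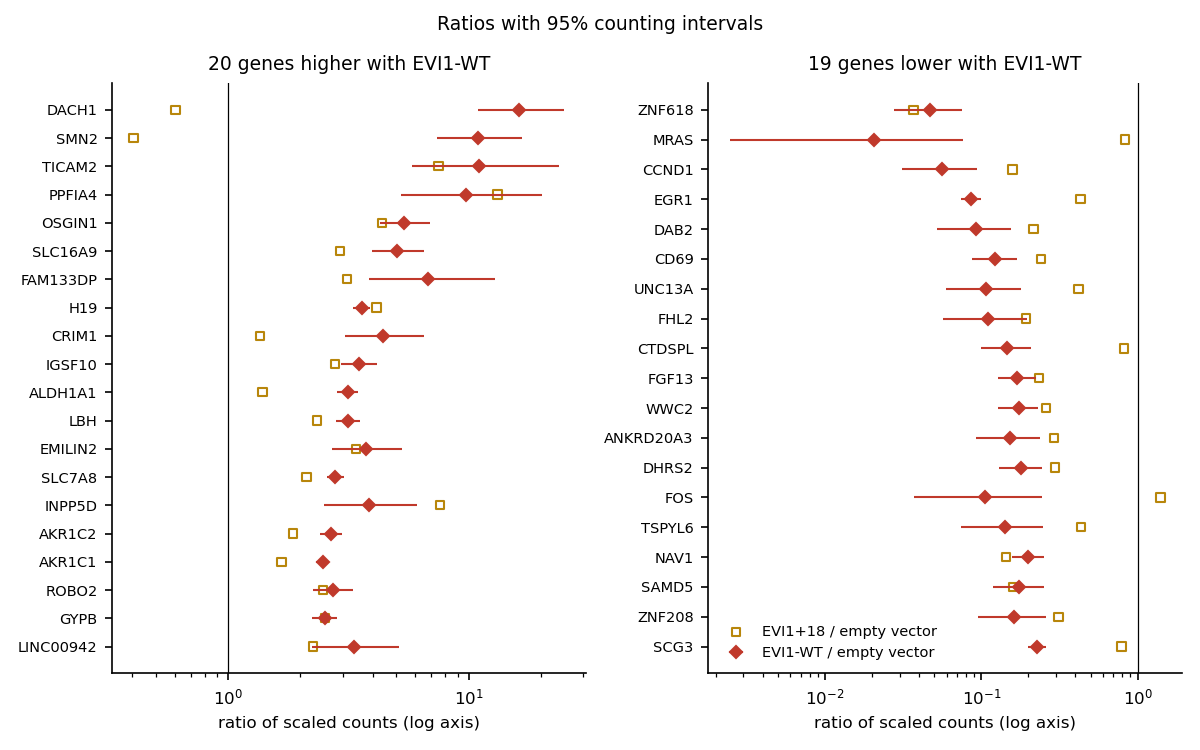
Ratio of scaled counts to empty vector (log axis) for the genes with the most extreme interval bound, with 95% counting intervals for EVI1-WT (red diamonds) and the EVI1+18 ratio as open squares; MAGEA9B, at 0 with EVI1-WT, is left out. DACH1 at 16.2 and MRAS at 0.0206 are the extremes, and for both the EVI1+18 square lies below 1.

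Promoter windows of 300 bases, from 250 before to 50 after the start site, were matched from RefSeq (GRCh38.p14) for 8494 of the 10406 genes, 81.6%. Motifs were sought on both strands as letters only. A motif of the first EVI1 finger domain, GACAAGATA, was held by 2 of the 8494 windows (0.0235%) and by none of the 59 windows of 2-fold higher or 137 of 2-fold lower genes. A motif of the second domain, GAAGATGAG, was held by 20 windows (0.235%), of which CECR2 is 2-fold lower and none is 2-fold higher. One of the 20 belongs to FDPS, the farnesyl diphosphate synthase of the mevalonate pathway described next. It is shown in the direction of the gene at chr1:155308737-155308785 (+ strand) of GRCh38.p14, with the match, in reverse complement, in capitals.
FDPS: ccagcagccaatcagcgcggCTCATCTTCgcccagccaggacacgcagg

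Genes of sterol and fatty acid synthesis were lower with EVI1-WT almost throughout. Cells make cholesterol from acetyl-CoA through mevalonate and squalene, take it up from lipoproteins, and set both routes by the SREBP factors, which INSIG and SCAP hold in or release from the endoplasmic reticulum. Of 9 genes of the mevalonate steps all 9 were below a ratio of 1, with a median log2 of -0.54, 4 of them past 1.5-fold and 2 past 2-fold. Of 12 genes from squalene to cholesterol all 12 were below, with a median of -0.68 and 7 past 1.5-fold. For sensing and uptake the count was 15 of 16, with a median of -0.42, 7 past 1.5-fold and 4 past 2-fold. The summed level of the squalene-to-cholesterol list was 1990, 1200 and 1650 CPM. At 1.5-fold lower these shares stand beside 3.95% of all genes.

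At the head of the pathway, HMGCS1, which makes HMG-CoA, had 4738, 2261 and 3915 counts and was 2.12-fold lower (2.02 to 2.23). ACAT2, which joins the first acetyl units, had 3942, 2611 and 3454 counts and was 1.53-fold lower (1.45 to 1.61). The EVI1-WT library was lowest of the 3 for both. IDI1, the isomerase of isopentenyl diphosphate, had 2815, 1751 and 2652 counts and was 1.63-fold lower (1.53 to 1.73). FDPS had 4129, 2893 and 4293 counts and was 1.44-fold lower (1.38 to 1.51). The difference was thus smaller for FDPS than for HMGCS1, with intervals that did not meet. In the later steps, LSS, which closes the sterol ring, had 3749, 1856 and 3160 counts and was 2.04-fold lower (1.93 to 2.16). CYP51A1, the lanosterol demethylase, had 3651, 2050 and 2939 counts and was 1.80-fold lower (1.71 to 1.90). DHCR7, a late reductase, had 4581, 2395 and 4337 counts and was 1.93-fold lower (1.84 to 2.03). In the EVI1+18 library these 3 genes lay between the other libraries.

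Genes of cholesterol uptake were lower too. SCARB1, the receptor for high-density lipoprotein, had 3945, 1833 and 3629 counts and was 2.18-fold lower (2.06 to 2.30). Of the regulators, SREBF1 had 2188, 1432 and 2244 counts and was 1.55-fold lower (1.45 to 1.65), SREBF2 had 3744, 3090 and 4336 counts and was 1.23-fold lower (1.17 to 1.29), and SCAP had 2497, 2514 and 3370 counts and was at a ratio of 0.995 (0.941 to 1.05). INSIG1 stood out among them, with 5905, 2075 and 6955 counts. The sterol carriers STARD4, at 1100, 722 and 1215 counts, and NPC2, at 163, 109 and 197 counts, were 1.54-fold lower (1.40 to 1.70) and 1.51-fold lower (1.18 to 1.95). On the efflux side, 5 genes were described. APOE, the apolipoprotein that carries cholesterol away, had 1056, 1753 and 2710 counts and was 1.64-fold higher (1.52 to 1.77), the opposite direction.

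The fatty acid list was below a ratio of 1 for 13 of 14 genes, with a median log2 of -0.45. FADS1, a desaturase of polyunsaturated chains, had 13686, 4953 and 10503 counts and was 2.80-fold lower (2.71 to 2.89). SCD, which makes oleate, had 22544, 12110 and 19652 counts and was 1.88-fold lower (1.84 to 1.93). FASN, the synthase itself, had 23679, 14882 and 29005 counts and was 1.61-fold lower (1.58 to 1.64). In the EVI1+18 library FASN was not low, whereas FADS1 was at a ratio of 0.670 to empty vector. FADS2, the partner desaturase next to FADS1, had 974, 751 and 933 counts and was 1.31-fold lower (1.19 to 1.44). ACLY, which makes cytosolic acetyl-CoA from citrate, had 12259, 8544 and 12387 counts and was 1.45-fold lower (1.41 to 1.49), and ELOVL6, an elongase, had 1991, 1348 and 1920 counts and was 1.49-fold lower (1.39 to 1.60). Breakdown did not mirror this. Of 18 genes of fatty acid oxidation 13 were above a ratio of 1, at a median of 0.10, and none passed 1.5-fold. Among 26 genes of phospholipid and sphingolipid synthesis the median was 0.01 and 1, CHKB, passed 1.5-fold, higher. The sterol response element, sought as TCACNCCAC, was held by 1 of 29 windows of the 3 sterol lists, that of SREBF2 (3.45%), against 1.04% of all windows.

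**Figure D3:**
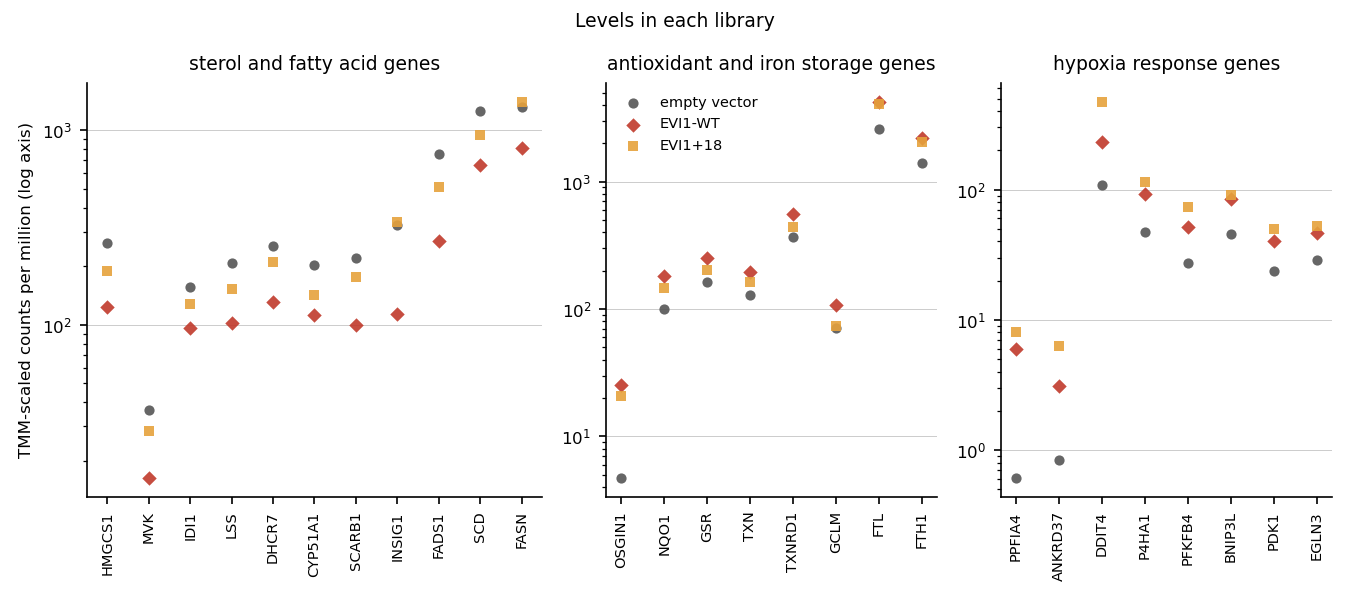
TMM-scaled CPM (log axis) of genes in 3 groups, 1 point per library: grey circles for empty vector, red diamonds for EVI1-WT and orange squares for EVI1+18. The red diamonds are lowest for all 11 lipid genes, and grey circles are lowest for the 8 antioxidant and 8 hypoxia genes.

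Histone genes were the other group of uniform direction. Replication-dependent histones are made in bulk during DNA synthesis, and most of their transcripts end without a poly(A) tail; whether the library preparation selected tails is not given in the sources used here. All 21 described members of 65 were below a ratio of 1, with a median log2 of -0.89, and 19 were at least 1.5-fold and 8 at least 2-fold lower. HIST1H2BK, the most abundant of them, had 9585, 5216 and 8539 counts and was 1.86-fold lower (1.80 to 1.92). HIST1H1C, a linker histone among the 10 largest losses in CPM, had 7494, 3552 and 5837 counts and was 2.13-fold lower (2.05 to 2.22). HIST1H2BG had 78, 25 and 71 counts and was 3.16-fold lower (1.99 to 5.17). HIST1H2AC had 949, 521 and 789 counts and was 1.84-fold lower (1.65 to 2.05). All 4 core classes and the linker class had members among them, as with HIST1H3D, at 113, 71 and 95 counts and 1.61-fold lower (1.19 to 2.20). HIST2H2AA3 and HIST2H2AA4 are near-identical and carry the same counts, so only their sum, 628, 352 and 480 counts, is a firm value, at a ratio of 0.554 (0.485 to 0.632). In the EVI1+18 library most of these values lay between the other libraries.

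Genes of DNA copying and cell division did not share the direction of the histones. Among 42 replication genes of S phase the median log2 was 0.07 and among 43 genes of mitosis 0.05, and none of either list passed 1.5-fold. Of 8 histone variants whose transcripts carry poly(A) tails, 4 were above and 4 below a ratio of 1, with a median of 0.01. Of 24 cyclins, their kinases and inhibitors of G1, CCND1 and CDKN1A were lower by at least 2-fold and the other 22 lay within 1.5-fold. CCND2 had 2062, 1657 and 1997 counts and was 1.26-fold lower (1.18 to 1.34). CCND3 had 3291, 3691 and 4330 counts and was 1.11-fold higher (1.06 to 1.16). CDK6, the kinase partner of these cyclins, had 4577, 5538 and 5659 counts and was 1.20-fold higher (1.15 to 1.24). These stayed within 1.5-fold, while CCND1 had 265, 15 and 48 counts.

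Several early response and growth factor genes were lower with EVI1-WT. Immediate-early genes are switched on within minutes by the ERK pathway through serum response factor, which binds the CArG box. Of 19 described, 14 were below a ratio of 1, with a median log2 of -0.27, 5 by at least 1.5-fold. Besides EGR1, FOS and IER2 these were JUND, an AP-1 subunit with 1331, 853 and 1641 counts, 1.58-fold lower (1.45 to 1.72), and ZFP36, which destabilises short-lived mRNAs, with 322, 208 and 325 counts, 1.57-fold lower (1.31 to 1.87). In a mixed list of ERK feedback regulators and ETS targets, 11 of 13 described genes were below a ratio of 1, with a median of -0.30. DUSP5, a nuclear ERK phosphatase, had 63, 38 and 85 counts and was 1.68-fold lower (1.10 to 2.58). SPRY4, an inhibitor upstream of RAF, had 499, 336 and 383 counts and was 1.5-fold lower (1.31 to 1.73). ETV5, an ETS factor downstream of ERK, had 524, 369 and 384 counts and was 1.44-fold lower (1.25 to 1.65). The list of the RAS family and the RAF-MEK-ERK core differed little, with 28 of 30 genes within 1.5-fold. The exceptions were MRAS, on 96, 2 and 91 counts, and RASGRP4, an exchange factor for RAS with 41, 98 and 116 counts, 2.36-fold higher (1.63 to 3.49).

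A CArG box was found in 3 of the 137 windows of 2-fold lower genes (2.19%), in none of the 59 of 2-fold higher genes, and in 0.989% of all windows. The 3 are shown because they include the early gene EGR1 and a growth factor; capitals mark the box, EGR1 with a pair of them, at chr5:138465354-138465425 (+ strand), chr2:105438585-105438634 (- strand) and chr7:520317-520366 (- strand) of GRCh38.p14.
EGR1: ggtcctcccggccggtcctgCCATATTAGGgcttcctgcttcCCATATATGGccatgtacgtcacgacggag
FHL2: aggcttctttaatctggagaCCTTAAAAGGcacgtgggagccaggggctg
PDGFA: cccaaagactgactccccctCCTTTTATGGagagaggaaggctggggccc

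Growth factor genes were mostly lower as well, FGF13 among them. Of 16 described genes listed as cytokine and growth factor ligands, 12 were below a ratio of 1, with a median log2 of -0.31. Lower by at least 2-fold were 5, against none higher, where the background for that call is 1.70%. By depth that background was 11.2% at a mean of 50 to 100 counts, where PDGFA and EREG lie. At 100 to 200 counts, where FGF13 and IL16 lie, it was 4.05%. FGF13, which is intracellular, is counted among the 5. PDGFA, a chain of platelet-derived growth factor, had 112, 36 and 138 counts and was 3.15-fold lower (2.14 to 4.72). EREG, the epidermal growth factor receptor ligand epiregulin, had 141, 27 and 57 counts and was 5.28-fold lower (3.48 to 8.30). IL16, a chemoattractant, had 277, 126 and 141 counts and was 2.22-fold lower (1.80 to 2.77). GDF15, a stress cytokine, had 559, 258 and 619 counts and was 2.19-fold lower (1.89 to 2.55). PDGFA and GDF15 were at or above the empty vector level with EVI1+18, while EREG and IL16 were low in both EVI1 libraries. Among 40 receptors 20 were above and 20 below a ratio of 1, with a median of -0.01 and a mean of -0.16. Past 1.5-fold, 6 were lower and 2 higher, and past 2-fold 4 were lower and 1 higher. IL4R, the interleukin-4 receptor, had 90, 14 and 83 counts and was 6.50-fold lower (3.68 to 12.4). LIFR, the receptor for leukaemia inhibitory factor, had 404, 119 and 330 counts and was 3.43-fold lower (2.79 to 4.25). IL10RA had 151, 66 and 102 counts and was 2.31-fold lower (1.72 to 3.14). TNFRSF1A, the main receptor for tumour necrosis factor, had 1032, 594 and 1076 counts and was 1.76-fold lower (1.59 to 1.95). On the other side, IL1R1, the interleukin-1 receptor, had 90, 214 and 156 counts and was 2.35-fold higher (1.83 to 3.04). MST1R, on 87, 44 and 95 counts, lay at a ratio of 0.5.

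Signalling lists further downstream were mostly level. Of 25 genes of the TGF-beta and BMP pathway the median log2 was -0.03, and CDKN1A and ID3 were the 2 past 1.5-fold. SMAD3, a receptor-regulated SMAD that EVI1 is known to bind, had 1141, 1002 and 1064 counts and was 1.15-fold lower (1.06 to 1.26). SKI, a corepressor of SMADs, had 1632, 1514 and 1781 counts and was 1.09-fold lower (1.02 to 1.17). Of 13 Notch genes 9 were below a ratio of 1, and 3 were lower by at least 1.5-fold. NOTCH1, the receptor, had 811, 477 and 804 counts and was 1.72-fold lower (1.53 to 1.93). Its targets HES1, at 146, 70 and 71 counts, and HEY1, at 134, 77 and 68 counts, were 2.11-fold lower (1.58 to 2.85) and 1.76-fold lower (1.32 to 2.36), and both were low with EVI1+18 too, where NOTCH1 was at a ratio of 0.865. The WNT list had a median of 0.04. FZD3, a WNT receptor, had 19, 47 and 154 counts and was 2.45-fold higher (1.41 to 4.41), and LGR4, the R-spondin receptor, had 393, 674 and 683 counts and was 1.70-fold higher (1.49 to 1.92). Of the NF-kB list 14 of 17 were below a ratio of 1 with a median of -0.14. Among 18 tyrosine phosphatases, PTPRC, PTPRR and PTPN7 were lower by at least 1.5-fold, PTPRR with 83, 28 and 54 counts, 3.0-fold lower (1.93 to 4.78).

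Antioxidant genes were mostly higher with EVI1-WT. The factor NRF2 (NFE2L2) binds antioxidant response elements and induces enzymes that make glutathione, recycle thioredoxin, detoxify quinones and store iron. Of 39 described members 30 were above a ratio of 1, with a median log2 of 0.17. At least 1.5-fold higher were 8, against 0 lower, where the background is 2.37% higher. NQO1, a quinone reductase, had 1793, 3317 and 3033 counts and was 1.83-fold higher (1.73 to 1.94). GSR, which regenerates glutathione, had 2954, 4546 and 4175 counts and was 1.52-fold higher (1.45 to 1.59). TXN, thioredoxin, had 2306, 3541 and 3393 counts and was 1.52-fold higher (1.44 to 1.60), and its reductase TXNRD1 had 6620, 10136 and 9022 counts and was 1.51-fold higher (1.47 to 1.56). GCLM, the modifier subunit of the enzyme that limits glutathione synthesis, had 1285, 1968 and 1533 counts and was 1.51-fold higher (1.41 to 1.63). OSGIN1 had 85, 464 and 426 counts. In the EVI1+18 library OSGIN1 stood at a ratio of 4.37, NQO1 at 1.48 and GCLM at 1.04, so that GCLM was near the empty vector level. NFE2L2 itself had 2083, 1888 and 2230 counts and was 1.12-fold lower (1.05 to 1.19). HMOX1, heme oxygenase and a well-known target, was listed at 0 counts in every library, and the tables do not show whether that is a failed estimate.

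The aldo-keto reductases AKR1C1 and AKR1C2, which also respond to NRF2, had 1671, 4175 and 3195 counts and 489, 1324 and 1043 counts and were 2.47-fold higher (2.33 to 2.62) and 2.68-fold higher (2.41 to 2.98). They are near-identical and each value is uncertain, and their sum was 2160, 5499 and 4238 counts, a ratio of 2.52 (2.39 to 2.65). The genes of iron storage were higher as well. FTL, the ferritin light chain, was at 2570, 4230 and 4050 CPM and 1.65-fold higher (1.63 to 1.67). FTH1, the heavy chain, was at 1400, 2210 and 2030 CPM and 1.58-fold higher (1.56 to 1.61). Both were among the 10 largest gains in CPM and high in both EVI1 libraries. TFRC, the transferrin receptor that brings iron in, was at 1250, 1700 and 1740 CPM and 1.36-fold higher (1.34 to 1.38). TF, transferrin, had 31, 67 and 59 counts and was 2.14-fold higher (1.38 to 3.38). Of the sensors, IREB2 had 3104, 3099 and 3033 counts and was at a ratio of 0.987 (0.939 to 1.04), and ACO1 had 962, 941 and 1048 counts and was at a ratio of 0.967 (0.883 to 1.06). The iron list of 22 had a median of 0.10, with FTL, FTH1 and TF past 1.5-fold.

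The antioxidant response element, TGACNNNGC, was held by 6 of 29 windows of the list (20.7%) against 15.4% of all. GCLM and TXNRD1 are the members among the 8 that hold it; their matches are in capitals, at chr1:93909436-93909484 (- strand) and chr12:104215660-104215799 (+ strand), and GCLM and the second TXNRD1 match read in reverse complement.
GCLM: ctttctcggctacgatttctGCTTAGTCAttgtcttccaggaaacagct
TXNRD1: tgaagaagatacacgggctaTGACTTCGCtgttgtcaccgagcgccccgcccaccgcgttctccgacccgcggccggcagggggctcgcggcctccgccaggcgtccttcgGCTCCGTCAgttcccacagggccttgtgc

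Hypoxia response genes were mostly higher with EVI1-WT. HIF factors bind ACGTG cores and induce genes for glycolysis, mitochondrial turnover and collagen modification. Of 30 described 24 were above a ratio of 1, with a median log2 of 0.26. At least 1.5-fold higher were 10, and 1, the glucose transporter SLC2A3 with 3451, 2172 and 3872 counts, was 1.61-fold lower (1.52 to 1.70). DDIT4, an inhibitor of MTOR signalling, had 1954, 4211 and 9758 counts and was 2.13-fold higher (2.02 to 2.25). P4HA1, which hydroxylates prolines of collagen, had 851, 1702 and 2379 counts and was 1.98-fold higher (1.82 to 2.15). PFKFB4, which sets the flow of glycolysis, had 489, 946 and 1527 counts and was 1.91-fold higher (1.71 to 2.14). BNIP3L, a mitophagy receptor also used in red cell maturation, had 828, 1540 and 1893 counts and was 1.84-fold higher (1.69 to 2.0). For all 4 the order was empty vector, EVI1-WT, EVI1+18 from low to high. PDK1, which diverts pyruvate from mitochondria, had 429, 741 and 1033 counts and was 1.71-fold higher (1.51 to 1.93). EGLN3, an oxygen-sensing hydroxylase, had 519, 842 and 1077 counts and was 1.60-fold higher (1.44 to 1.79). The factor and the glycolytic enzymes differed less. HIF1A had 843, 841 and 767 counts and was at a ratio of 0.986 (0.895 to 1.09). Of 28 genes of glycolysis and the pentose phosphate path 21 were above a ratio of 1 with a median of 0.08, 1 past 1.5-fold, ENO2, with 145, 263 and 400 counts, 1.79-fold higher (1.46 to 2.21). GAPDH was at 3340, 3970 and 4600 CPM and 1.19-fold higher (1.18 to 1.20). LDHA, which makes lactate, was at 1370, 1730 and 1890 CPM and 1.26-fold higher (1.24 to 1.28).

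ACGTG, which also lies inside the E-box CACGTG, was held by 13 of 25 windows of the hypoxia list (52.0%) and by 28.0% of all windows. Of the 59 windows of 2-fold higher genes 27.1% held it, near that share. The windows of 4 list members with large ratios hold it at chr1:203026352-203026397 (+ strand), chr4:185396659-185396722 (+ strand), chr10:72273779-72273823 (+ strand) and chr10:73096928-73096972 (- strand), with matches in capitals, that of P4HA1 in reverse complement.
PPFIA4: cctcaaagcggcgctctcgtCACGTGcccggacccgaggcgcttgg
ANKRD37: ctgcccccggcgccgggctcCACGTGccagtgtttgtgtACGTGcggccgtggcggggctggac
DDIT4: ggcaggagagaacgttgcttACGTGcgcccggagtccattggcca
P4HA1: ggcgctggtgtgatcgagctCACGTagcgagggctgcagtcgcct

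Genes of the red cell membrane and of heme synthesis were mostly higher with EVI1-WT. Of 31 genes of the red cell membrane and its skeleton 24 were above a ratio of 1, with a median log2 of 0.20, 8 past 1.5-fold on the higher side and 2 on the lower. AQP1, the water channel of the Colton blood group, had 189, 500 and 644 counts and was 2.62-fold higher (2.21 to 3.11). ERMAP, of the Scianna group, had 1566, 2721 and 2742 counts and was 1.72-fold higher (1.61 to 1.83). DMTN, the actin bundler dematin, had 532, 860 and 617 counts and was 1.60-fold higher (1.43 to 1.78), and it was near empty vector with EVI1+18. KEL, of the Kell group, had 1227, 1754 and 1896 counts and was 1.41-fold higher (1.31 to 1.52). The lower members were ACHE, the acetylcholinesterase of the Cartwright group, with 193, 112 and 150 counts, 1.74-fold lower (1.37 to 2.22), and SLC4A1. ANK1, an anchor of the membrane skeleton, stayed close, at 7457, 7174 and 8197 counts, 1.05-fold lower (1.02 to 1.09).

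Of 8 globin genes described 6 were above a ratio of 1, with a median log2 of 0.20, and 1 was at least 1.5-fold higher and 1 lower. HBE1, the embryonic epsilon chain, was at 1820, 3520 and 1860 CPM and 1.94-fold higher (1.91 to 1.96), with EVI1+18 near the empty vector level. The fetal gamma chains HBG2, at 5160, 7260 and 7580 CPM, and HBG1, at 3060, 3660 and 4160 CPM, were 1.41-fold higher (1.40 to 1.42) and 1.20-fold higher (1.18 to 1.21), but near-identical copies make each value uncertain. All 3 were among the 10 largest gains in CPM.

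Of 20 genes of heme synthesis and breakdown 17 were above a ratio of 1, with a median log2 of 0.30 and 3 past 1.5-fold. ABCB6, a porphyrin transporter, had 727, 1119 and 1146 counts and was 1.52-fold higher (1.38 to 1.67). PPOX, which oxidises protoporphyrinogen, had 251, 383 and 436 counts and was 1.51-fold higher (1.28 to 1.78). CPOX, of the step before it, had 1068, 1452 and 1660 counts and was 1.34-fold higher (1.24 to 1.46). ALAD had 358, 513 and 552 counts and was 1.42-fold higher (1.24 to 1.63). The erythroid transcription factors did not lean the same way. Of 28 erythroid and stem cell factors 17 were below a ratio of 1, with a median of -0.08, and only RUNX1 and SPI1 passed 1.5-fold, both higher. The ratio of GATA1 was 0.900 (0.859 to 0.942), that of KLF1 1.11 (1.05 to 1.17) and that of TAL1 1.32 (1.26 to 1.39). SPI1, which codes for PU.1 and opposes GATA1, had 271, 428 and 745 counts and was 1.56-fold higher (1.34 to 1.82). NFE2 had 4644, 3900 and 4949 counts and was 1.20-fold lower (1.15 to 1.26).

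The GATA motif, sought as AGATAA, was held by 7 of 24 windows of the membrane list (29.2%) and 2 of 16 of the heme list (12.5%), against 4.50% of all windows. GATAAG, which overlaps it, was held by 20.8%, 12.5% and 3.57%. In the membrane list the windows with AGATAA include GYPB with GYPE and RHCE with RHD, and those with GATAAG include RHCE with RHD. These pairs are near copies, so their windows are not independent and the shares of the membrane list count them separately. To show the motif in genes of both lists, stretches of RHCE, which resembles RHD so that its counts are uncertain, KEL and ALAS2 are given with the match in capitals, at chr1:25420886-25420921 (- strand), chr7:142962400-142962445 (- strand) and chrX:55031079-55031124 (- strand, match in reverse complement).
RHCE: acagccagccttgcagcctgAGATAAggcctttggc
KEL: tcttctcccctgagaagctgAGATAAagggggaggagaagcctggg
ALAS2: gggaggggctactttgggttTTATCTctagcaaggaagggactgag

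Genes of other blood lineages differed in both directions. CD69, an early activation antigen, had 349, 43 and 96 counts and was 8.21-fold lower (5.97 to 11.6). PTPRC, the leukocyte antigen CD45, had 568, 216 and 300 counts and was 2.66-fold lower (2.27 to 3.13). CD3D, a T cell receptor subunit, had 179, 59 and 73 counts and was 3.07-fold lower (2.27 to 4.19), while CD3E was at 5, 0 and 0 counts. IL2RG, the common receptor chain of interleukins, had 403, 260 and 222 counts and was 1.57-fold lower (1.34 to 1.84). All 4 were low in both EVI1 libraries, and none of the EVI1-WT intervals reached a ratio of 1. CD52, a small antigen of lymphocytes, had 157, 270 and 229 counts and was 1.70-fold higher (1.39 to 2.08). PROCR, the protein C receptor found on stem cells, had 67, 120 and 101 counts and was 1.77-fold higher (1.30 to 2.42). Of 7 described genes listed as stem and progenitor surface antigens, 4 were above a ratio of 1, with a median log2 of 0.10. At least 1.5-fold higher was 1, and 3 were lower, the largest difference being that of CD69, which is counted in this list. Of 6 described lymphoid genes, 1 was at least 1.5-fold higher and 2 were lower. Of 13 megakaryocyte and platelet genes 8 were below a ratio of 1, with a median log2 of -0.18. F2RL3, a thrombin receptor, had 320, 173 and 209 counts and was 1.87-fold lower (1.55 to 2.26). GP1BB, part of the receptor for von Willebrand factor, had 234, 142 and 337 counts and was 1.67-fold lower (1.35 to 2.07). Of the granulocyte and monocyte list 9 of 44 genes were described and 17 were at 0 in both libraries. Of those 9, 8 were above a ratio of 1, with a median log2 of 0.29, 2 past 1.5-fold, and 1 was lower, FCGR2A, an Fc receptor with 1445, 719 and 1521 counts, 2.03-fold lower (1.86 to 2.23). LAPTM5, a lysosomal protein of blood cells, had 260, 400 and 528 counts and was 1.52-fold higher (1.30 to 1.78).

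Guidance, matrix and cytoskeleton genes diverged gene by gene. Of 23 genes of axon guidance 4 were at least 1.5-fold higher and 4 lower, with a median log2 of 0.08. ROBO2, a receptor for SLIT, had 148, 407 and 420 counts and was 2.72-fold higher (2.25 to 3.30). SLIT2, a ligand of that family, had 118, 40 and 394 counts and was 2.98-fold lower (2.07 to 4.39). Receptor and ligand thus differed in opposite directions with EVI1-WT, and with EVI1+18 both were above empty vector. NAV1, a neuron navigator, had 447, 90 and 74 counts and was 5.02-fold lower (4.0 to 6.37). NEO1, a netrin receptor, had 57, 18 and 85 counts and was 3.20-fold lower (1.86 to 5.78). SEMA7A, the membrane semaphorin of the John Milton Hagen group, had 193, 380 and 448 counts and was 1.95-fold higher (1.63 to 2.33). PLXNA2, a semaphorin receptor, had 35, 62 and 122 counts and was 1.75-fold higher (1.14 to 2.73). In the matrix list, 4 of 19 passed 1.5-fold. COL18A1, a basement membrane collagen, had 1097, 2438 and 3117 counts and was 2.20-fold higher (2.04 to 2.36). P4HA2, a collagen hydroxylase, had 325, 555 and 646 counts and was 1.69-fold higher (1.47 to 1.94). SPARC, a collagen-binding glycoprotein, had 97, 25 and 34 counts and was 3.93-fold lower (2.51 to 6.36). ITGB5, an integrin chain, was the 1 of 16 adhesion genes past 1.5-fold, with 641, 321 and 404 counts.

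Actin regulators were balanced, with 22 of 45 above a ratio of 1, and 3 at least 1.5-fold higher and 3 lower. FHDC1, a formin, had 38, 106 and 229 counts and was 2.76-fold higher (1.89 to 4.11). WAS, the Wiskott-Aldrich protein of blood cells, had 64, 138 and 233 counts and was 2.13-fold higher (1.57 to 2.91). RND2, an atypical small GTPase, had 61, 103 and 119 counts and was 1.67-fold higher (1.20 to 2.33). RHOH, a blood-restricted GTPase, had 298, 163 and 218 counts and was 1.85-fold lower (1.52 to 2.25). FMNL3, another formin, had 432, 248 and 396 counts and was 1.76-fold lower (1.5 to 2.07). RAC2 had 1619, 1061 and 1507 counts and was 1.54-fold lower (1.43 to 1.67). VIM, the intermediate filament vimentin, was at 522, 279 and 364 CPM and 1.87-fold lower (1.81 to 1.93), among the 10 largest losses in CPM. It also belongs to the packaging cell and stromal list, of which 6 of 10 described members were above a ratio of 1 with a median log2 of 0.02. ARHGAP4, a GTPase-activating protein of blood cells, had 466, 183 and 172 counts and was 2.58-fold lower (2.17 to 3.07), and ARHGAP12 had 327, 608 and 559 counts and was 1.84-fold higher (1.60 to 2.11).

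Most transcription factor families lay near the background. Of 349 described genes named ZNF, 10 were at least 1.5-fold higher and 11 lower. Those with the largest ratios on the lower side were ZNF618, ZNF208, with 123, 20 and 44 counts, 6.22-fold lower (3.86 to 10.5), and ZNF711, with 194, 36 and 171 counts, 5.45-fold lower (3.80 to 8.01). With EVI1+18 ZNF711 was at a ratio of 0.769 and ZNF208 at 0.312. ZNF257 had 359, 113 and 321 counts and was 3.21-fold lower (2.59 to 4.01). On the higher side ZNF521, a cofactor of early blood cells, had 124, 295 and 389 counts and was 2.35-fold higher (1.90 to 2.92). ZNF680 had 333, 642 and 480 counts and was 1.91-fold higher (1.67 to 2.18). Of 22 nuclear receptors 2 were past 1.5-fold, both lower. ESRRB, an orphan receptor, had 151, 39 and 80 counts and was 3.92-fold lower (2.74 to 5.72). VDR, the vitamin D receptor, had 134, 46 and 83 counts and was 2.95-fold lower (2.09 to 4.21). Among 28 forkhead, SOX and KLF factors, SOX5 had 276, 137 and 238 counts and was 2.04-fold lower (1.65 to 2.52), and KLF13 had 555, 299 and 447 counts and was 1.88-fold lower (1.63 to 2.17). A list of 24 described genes counts DACH1, which is not a homeobox gene, beside HOX and other homeobox genes. DACH1 alone passed 1.5-fold in that list. Of 35 genes of EVI1 partners, corepressors and chromatin none did, and their median log2 was -0.03. CTBP1, a corepressor that EVI1 binds, had 1941, 1857 and 2289 counts and was at a ratio of 0.946 (0.887 to 1.01). GATA2, a known target in other settings, had 4216, 2968 and 3558 counts. Of 24 genes of DNA methylation none passed 1.5-fold, DNMT3B with 4572, 4837 and 5261 counts, a ratio of 1.05 (1.0 to 1.09).

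Membrane transport and glycosylation genes differed one by one. Of 147 described solute carriers 8 were at least 1.5-fold higher and 7 lower, with a median log2 near 0. SLC30A10, a manganese exporter, had 343, 616 and 567 counts and was 1.78-fold higher (1.55 to 2.03). SLC12A7, a potassium chloride cotransporter, had 160, 278 and 482 counts and was 1.72-fold higher (1.41 to 2.10). SLC4A11 had 74, 29 and 52 counts and was 2.58-fold lower (1.66 to 4.11), and SLC17A7, a vesicular glutamate transporter, had 190, 81 and 194 counts and was 2.37-fold lower (1.82 to 3.12). Of 14 potassium channel genes 4 were at least 1.5-fold lower and 1 higher. The higher one was KCNN4, the calcium-gated Gardos channel of red cells, with 277, 517 and 525 counts, 1.84-fold higher (1.59 to 2.14). KCNJ11 had 82, 40 and 91 counts and was 2.07-fold lower (1.40 to 3.11). Of 44 glycosyltransferases 5 were at least 1.5-fold higher and 1 lower. GALNT6, which starts mucin-type chains, had 233, 522 and 538 counts and was 2.21-fold higher (1.89 to 2.60). B3GALNT1, which makes the red cell glycolipid globoside, had 63, 144 and 80 counts and was 2.26-fold higher (1.67 to 3.09). GCNT2, the branching enzyme of the adult I antigen, had 28, 59 and 75 counts and was 2.08-fold higher (1.31 to 3.39). ST6GAL1, the sialyltransferase of N-glycans, had 3079, 1696 and 1875 counts and was 1.84-fold lower (1.73 to 1.95). SDC2, a heparan sulfate proteoglycan, had 22, 64 and 132 counts and was 2.88-fold higher (1.75 to 4.90).

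Immune, death and stress lists were near level or slightly lower. Of 19 interferon response genes 12 were below a ratio of 1, with a median log2 of -0.11. At least 1.5-fold lower were 2, and 1 was higher, at a log2 ratio of 1.18, the largest difference of the list. IFITM1, a membrane restriction factor, had 7896, 5343 and 7827 counts and was 1.49-fold lower (1.44 to 1.55). Of 10 genes of MHC and antigen processing 7 were below, with TAP1, a peptide transporter, at 60, 34 and 67 counts, 1.79-fold lower (1.15 to 2.80), and HLA-E at 725, 490 and 660 counts, 1.5-fold lower (1.33 to 1.68). Of 32 genes of the BCL2 family and apoptosis 2 were at least 1.5-fold higher and 3 lower. CFLAR, which blocks caspase-8, had 1868, 1090 and 1168 counts and was 1.73-fold lower (1.61 to 1.87). BCL2L1, a survival factor of red cell precursors, had 3868, 3418 and 4194 counts and was 1.14-fold lower (1.09 to 1.20). Of 30 heat shock genes 20 were above a ratio of 1, with a median log2 of 0.06, 2 at least 1.5-fold higher and 1 lower. DNAJB2 had 37, 94 and 86 counts and was 2.51-fold higher (1.70 to 3.78), and HSPA6, an inducible HSP70, had 105, 30 and 118 counts and was 3.54-fold lower (2.34 to 5.51). In the list of amino acid and unfolded protein stress, 1 of 30, CHAC1, passed 1.5-fold, with 91, 151 and 248 counts, 1.64-fold higher (1.26 to 2.15), and the EVI1+18 library was higher still. Of 54 lysosome and autophagy genes WIPI1 had 109, 48 and 68 counts and was 2.30-fold lower (1.62 to 3.30).

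Genes silent in most tissues were among those lower. Of 21 cancer-testis antigens, which are normally limited to the germline, 15 were below a ratio of 1 and 5 were lower by at least 2-fold. MAGEA9B, with 159, 0 and 0 counts, is counted among the 5. MAGEC2 had 448, 125 and 183 counts and was 3.63-fold lower (2.97 to 4.46). MAGEC1 had 586, 276 and 191 counts and was 2.15-fold lower (1.86 to 2.49). MAGEB1 had 901, 330 and 1023 counts and was 2.76-fold lower (2.43 to 3.14). MAGEC2 and MAGEC1 were low in both EVI1 libraries, whereas MAGEB1 was not low with EVI1+18. MAGEA1 had 482, 799 and 735 counts and was 1.64-fold higher (1.46 to 1.84), the 1 member higher by 1.5-fold. These families have close copies, and counts of single MAGE genes are uncertain. RIMS3, of the presynaptic active zone, had 36, 116 and 117 counts and was 3.19-fold higher (2.17 to 4.77).

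Several large lists held no gene past 1.5-fold. None of 82 cytosolic ribosomal proteins did, 71 of them above a ratio of 1 with a median log2 of 0.09. Nor did any of 62 nucleolar genes of ribosome making, 44 of them below with a median of -0.04. The same held for 77 mitochondrial ribosomal proteins at 0.01, 37 complex I subunits at 0.03, 26 genes of the TCA cycle at 0.01, 37 aminoacyl-tRNA synthetases at 0.00, 35 of nucleotide synthesis at 0.02 and 27 of DNA repair at 0.02. Nor did any of 25 genes of the SF3B1 complex and branch point splicing, with a median of -0.01. Of 44 proteasome subunits 38 were above a ratio of 1, with a median of 0.12, and the 1 past 1.5-fold was the immune subunit PSMB10, lower, with 223, 149 and 266 counts. EEF1A1, the most abundant of the genes with a large gain, was at 15900, 17000 and 17500 CPM and 1.07-fold higher (1.07 to 1.08). EEF2, a partner in elongation, was at 4040, 3740 and 4280 CPM and 1.08-fold lower (1.07 to 1.09). HSPA8, a constitutive chaperone, was at 5040, 4490 and 4380 CPM and 1.12-fold lower (1.11 to 1.13), and TUBA1B at 3480, 3180 and 3450 CPM and 1.09-fold lower (1.08 to 1.10). These are large differences in CPM at small ratios. PRKCB, protein kinase C beta, combined both, at 604, 967 and 698 CPM and 1.60-fold higher (1.56 to 1.64).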

How the data were processed

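RNA of 3 K562 cultures was sequenced, 1 library each, so p-values and spreads between replicates could not be had. Per the file headers, the authors deposited for each library a table of 26334 genes that gives the expected count, TPM and FPKM of each; in an expected count, reads that fit several transcripts are shared out. The TPM values the authors scaled by effective length served as an alternative, and the deposited FPKM values were not used. The submitters' processing notes name bcl2fastq and the genome build hg19; the sources used here give neither aligner nor counter nor strand, so antisense, overlapping and near-identical genes are uncertain. Expected counts were rounded and scaled with TMM factors (edgeR 4.0.16, R 4.3.3). Ratios carry an exact 95% Clopper-Pearson interval conditional on the sum of both counts (scipy 1.17.1, Python 3.11.15). Its code was run on counts simulated with counting error alone, the model the interval assumes. That run therefore could not assess shared reads or differences between cultures. The reads carry no molecular identifiers, so they are not counts of molecules. The 10406 genes averaging 50 counts or more are described, and called at 2-fold or 1.5-fold. That mean takes in the EVI1+18 library, and some genes, among them FZD3, SDC2, PLXNA2, NEO1 and FOS, passed only through it. The comparison, its 70 gene lists and 27 symbol families were chosen with earlier results of these data known, and lists share members. Text names the 20 higher and 20 lower genes with the most extreme interval bound, the 10 and 10 with the largest CPM difference, up to 6 members of each list past 1.5-fold and its most abundant members. Some list members are counted but not reported here by name. Uncharacterised, antisense, small RNA and read-through symbols were left out. In lists told by role (sterols, fatty acids, early response, cyclins, heme, iron, TGF-beta, transcription factors) any member could be named. Others named outside that rule, among them ACHE, ANK1, CTBP1, DMTN, EGLN3, ERMAP, HIF1A, HLA-E, KEL, NFE2L2, PDK1, SLC12A7, SLC2A3, TXN and TXNRD1, and the promoters printed were chosen after their values were seen. Promoter sequences come from RefSeq (GRCh38.p14). DESeq2 1.42.0 gave size factors for an alternative scaling only.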

Additional observations from a re-analysis of the deposited data

How the results depend on the processing

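The counts of 73 genes at least 2-fold higher and 177 lower stayed within 1.5 times under other scalings, from 65 to 73 higher and from 175 to 202 lower over library totals, DESeq2 size factors, upper quartile factors and the authors' TPM. They depended on the filter and on the definition of a call. With a mean of at least 10 counts there were 210 higher and 481 lower, with a mean of at least 200 there were 26 and 48, and with no filter 895 and 1394. Asking that the interval bound also pass 2-fold left 34 and 103, and a 1.5-fold rule gave 247 and 411. Of 2836 named and listed genes, none of those past 2-fold changed direction under any scaling. Library totals, DESeq2 and upper quartile factors shift all genes alike, by -0.035, 0.001 and -0.014 on the log2 scale. Such shifts could not turn a gene past 2-fold, so only the TPM comparison was open to that outcome. With TPM, which moved the median of all described genes by -0.080 on the log2 scale, 620 left their counting interval. Of 97 list medians none of at least 0.1 in size changed sign under any alternative. The shifts from library totals, DESeq2 and upper quartile factors were too small to turn a median of that size. With the authors' TPM 14 medians moved out of the members' median interval, and with the mean in place of the median 11 did. With library totals and with a mean of at least 10 counts 1 each moved out. No paired analysis was possible because each construct has 1 library. For the same reason no library could be left out. Depth limits the rarest genes most, since 786 of those described had a mean under 100 counts.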

Other observations

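A run of neighbouring zinc finger genes was above a ratio of 1 together. In the RefSeq gene order, ZNF680 lies in a group of 12 genes named ZNF whose starts are each within 500000 bases of the next. The tables held 10 of them, 7 were described, and all 7 were above a ratio of 1 with EVI1-WT. ZNF736 had 493, 740 and 699 counts (ratio 1.48, 1.32 to 1.67), ZNF680 333, 642 and 480 (1.91, 1.67 to 2.18) and ZNF138 499, 762 and 754 (1.51, 1.35 to 1.69). ZNF273 had 464, 708 and 588 counts (1.51, 1.34 to 1.70), ZNF117 614, 903 and 753 (1.45, 1.31 to 1.61), ZNF107 652, 835 and 866 (1.27, 1.14 to 1.40) and ZNF92 629, 746 and 707 (1.17, 1.05 to 1.31). The EVI1+18 ratio to the same empty vector library ran from 0.981 for ZNF92 to 1.32 for ZNF138. Genes of this family are similar in sequence, so reads may be shared between them. The group was chosen after its values were seen.

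COL1A2, a chain of type I collagen and a stromal marker, had 93 counts with empty vector, 2 with EVI1-WT and 20 with EVI1+18, below the mean of 50 counts asked of described genes. COL1A1, the other chain, had 14, 11 and 20 counts, and LUM, a further stromal marker, was at 0 in every library. RELN, the secreted glycoprotein reelin, had 4576, 9737 and 10568 counts and was 2.10-fold higher with EVI1-WT (2.03 to 2.18). These genes were chosen after their values were seen.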
